A study of Mus musculus with 9 samples.

Results

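The Slc22 family of organic ion transporters was followed in 3-day-old mice in which the transcription factor Glis3 was mutated. Its 9 members here (Slc22a2, Slc22a4, Slc22a5, Slc22a6, Slc22a7, Slc22a8, Slc22a12, Slc22a18 and Slc22a19) were taken as every probe that carries one of these gene names in the scanner files and is not a control. That gave 13 of 41174 probes. RNA of 2 Glis3 mutant pups (Glis3zf/zf, C57BL/6, postnatal day 3) was set against RNA of 2 WT pups of the same strain and age, with each genotype held as 1 pool. Both pools were hybridised together on 2 Agilent arrays with the dyes exchanged, so the 2 arrays are a technical pair and no test between genotypes is possible. The series also holds 7 arrays from E15.5, which were not used here because their probe sets could not be matched to gene names. The labels give neither the sex of the pups nor how the mutant allele was made.

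SLC22 proteins are membrane carriers of the major facilitator superfamily that move small organic anions, cations and zwitterions, among them drugs, toxins, urate and carnitine. In the kidney, carriers on the blood side of proximal tubule cells take up organic anions in exchange for dicarboxylates, or take up cations down the membrane potential. Carriers on the urine side then finish the secretion or reclaim the solute. Several members are switched on late in kidney development and differ between male and female rodents.

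The arrays measured 20922 genes, that is, genes with a probe well above background in at least 1 pool on both arrays. Per channel, 72.8% to 76.6% of spots passed the scanner's well-above-background flag, and none of the spots that are not controls was saturated. Glis3 itself gave scanner signals of 3.88 and 3.39 in the mutant pool, not well above background on either array, against 22.1 and 21.5 in the WT pool. The sources used here do not say where the mutation lies relative to that probe, so this does not check the genotype. The label "pancreas" was set against marker lists. Of 9 acinar and 6 islet gene names, 0 had a scanner signal above 1000 in both pools, against 16 of 20 proximal tubule genes and 6 of 7 genes of other kidney segments. Sums were taken over the brightest probe of each listed gene on the array, whether measured or not. The proximal tubule list gave 453914 and 439581 in the mutant pool against 519423 and 480455 in the WT pool. The acinar list gave 1544 and 1348 in the mutant pool and 1605 and 1361 in the WT pool. For the islet list the sums were 206 and 174 in the mutant pool and 219 and 181 in the WT pool. Gcg and Ppy were not well above background, and Ins1 was so only in the WT pool on 1 of 2 arrays. Probes differ in how well they bind, so signals of different genes are not levels that can be compared, and these sums show only that the pancreas probes were dim and the kidney tubule probes bright in both pools. In bulk RNA such as this, fewer cells of a type and less RNA per cell cannot be told apart.

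All 13 probes passed the background flag for either pool on either array, so every member was measured. Ratios are log2 of mutant over WT after background correction and loess normalization, and a gene was called when both arrays put it at least 2-fold apart in one direction. None of the 9 members was called, where 0.191% of all genes were (0.0335% higher and 0.158% lower). At 1.5-fold the count was also 0 of 9, against 0.884% of all genes (0.258% higher and 0.626% lower). The brightest probe of each member had a ratio between -0.41 (Slc22a7) and 0.27 (Slc22a18), with a median of 0.02, and the median over all genes was -0.01. With median centring in place of loess the member median was -0.25, against -0.11 over all genes. With loess, ratios were above 0 on both arrays for 4 members (30.9% of all genes) and below 0 on both for 3 (37.8% of all genes). They differed in sign between the arrays for 2. The technical spread gives a scale for these numbers, but it does not include the variation between pups, which 1 pool per genotype cannot show. The pooled SD between the 2 arrays was 0.12 over all genes. The 2 values of a gene differed by 0.11 in the median and by up to 0.32 for 95% of genes. Over the 10461 brightest genes those differences were 0.12 and 0.36.

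**Figure D1:**
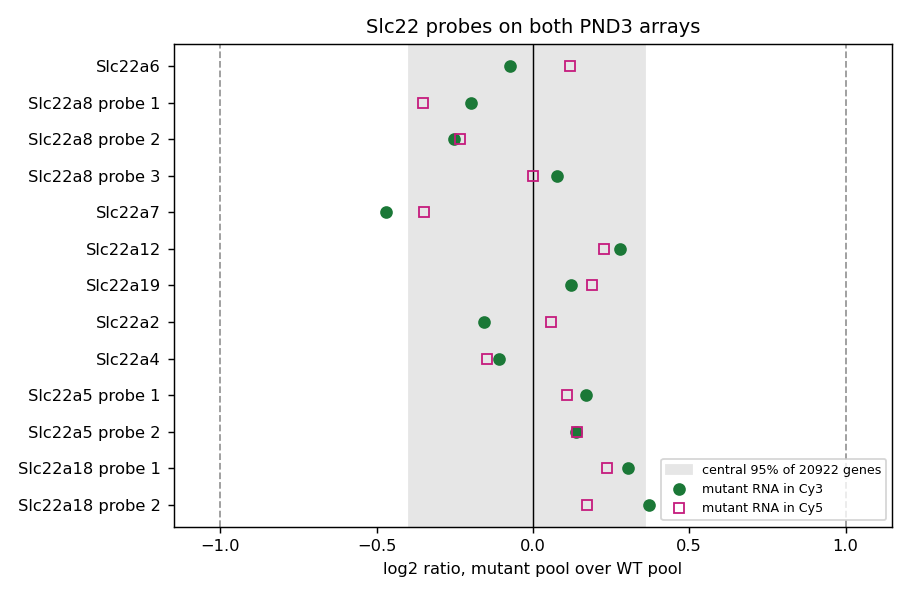
The log2 ratio of mutant over WT pool (x axis) for each Slc22 probe (rows) with mutant RNA in Cy3 (filled circles) and in Cy5 (open squares), with probe 1 the brightest of a gene. The grey band spans the central 95% of 20922 genes (-0.40 to 0.36) and dashed lines mark 2-fold. Slc22a7 lies at the band's lower edge and no probe reaches 2-fold.

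The organic anion carriers Slc22a6, Slc22a8 and Slc22a7 come first. Slc22a6 (Oat1), the main uptake carrier for para-aminohippurate, gave scanner signals of 35027 and 32082 in the mutant pool, against 34332 and 31680 in the WT pool. Here and below, the first value is from the array that held mutant RNA in Cy3 and the second from its dye swap. The pools overlapped, the loess ratios were -0.07 and 0.12, and their mean of 0.02 was smaller than the pooled SD.

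Slc22a8 (Oat3), a carrier of bulky organic anions and conjugated steroids, lay lower in the mutant pool. Its brightest probe gave 3523 and 3142 in the mutant pool, against 4276 and 3866 in the WT pool. Both mutant values lay below both WT values, and the ratios were -0.20 and -0.35, with a mean of -0.28 or 0.826-fold. This was at percentile 6.42 of all gene ratios. A second probe gave 705 and 602 in the mutant pool and 814 and 743 in the WT pool, with ratios of -0.25 and -0.23. The third and dimmest probe did not share the difference. It gave 254 and 211 in the mutant pool, against 245 and 202 in the WT pool, with ratios of 0.08 and 0.00. Averaging the 3 probes brought the ratio of Slc22a8 to -0.16. The 3 probes were designed against the same accession and share no stretch longer than 7 bases. They are shown by their first 30 of 60 bases, because they disagree about the same gene.
A_51_P127527 (brightest): ccctagctaagaacaacagaatcctctttc
A_52_P176956 (second): tttggctatgggagtagaagaatttggagt
A_52_P295475 (dimmest): ttctatcaccatgtcaaagtacctgaggta

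Slc22a6 and Slc22a8 are direct neighbours among protein-coding genes of mouse chromosome 19, and their upstream sequences are shown because the pair differed in ratio while sharing a short motif. A script searched the 250 bases upstream of each start site on both strands for the homeodomain-type motif GTTAAT, the HNF4 core CAAAGTCC and the GLIS core TGGGGGGT. A longer palindrome that contains GTTAAT was searched too, and had no match in the 8 windows (0.00913% of all windows). RefSeq promoters (GRCm38.p6) were found for 8 of the 9 members, Slc22a7 being the exception, and GTTAAT was present in 2 of the 8, Slc22a6 and Slc22a8. It occurred in 6.43% of all 32851 windows. The HNF4 core and the GLIS core had no match in any of the 8, and occurred in 1.20% and 1.36% of all windows. Capitals mark GTTAAT, which begins 56 bases upstream of the start in Slc22a6 (chr19:8617746-8617995, plus strand) and 81 bases upstream in Slc22a8 (chr19:8592932-8593181, plus strand).
Slc22a6: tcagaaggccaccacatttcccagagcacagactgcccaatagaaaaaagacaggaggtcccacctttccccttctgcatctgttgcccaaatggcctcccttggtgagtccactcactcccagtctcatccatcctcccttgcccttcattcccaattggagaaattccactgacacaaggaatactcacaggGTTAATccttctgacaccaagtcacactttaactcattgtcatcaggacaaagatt
Slc22a8: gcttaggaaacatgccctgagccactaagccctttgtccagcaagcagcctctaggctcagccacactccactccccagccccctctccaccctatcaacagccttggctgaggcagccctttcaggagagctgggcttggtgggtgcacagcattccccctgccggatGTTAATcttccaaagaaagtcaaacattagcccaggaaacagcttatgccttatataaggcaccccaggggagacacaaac
A match is a description of letters and does not show binding. The windows also differed in CpG content among members, with 0 CpG in Slc22a6, 1 in Slc22a8, 26 in Slc22a4 and 30 in Slc22a5, against a median of 6 over all windows.

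Slc22a7 (Oat2), a carrier of small organic anions that is also made in liver, had the lowest ratio of the members. It gave 557 and 519 in the mutant pool, against 768 and 697 in the WT pool. The pools did not overlap. The ratios were -0.47 and -0.35, with a mean of -0.41 (0.753-fold), at percentile 2.28 of all genes, and the difference between arrays was 0.12. Slc22a7 has 1 probe, so there was no second probe to compare.

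The anion carriers Slc22a12 and Slc22a19 lay higher in the mutant pool, although Slc22a19 turned to -0.04 with median centring. Slc22a12, the urate exchanger known as URAT1 in humans and Rst in mice, gave 2688 and 2450 in the mutant pool, against 2328 and 1996 in the WT pool. Both mutant values lay above both WT values, with ratios of 0.28 and 0.23 and a mean of 0.25 (1.19-fold), at percentile 93.3. Slc22a19 (Oat5), which in rodents carries steroid sulfates, gave 3569 and 3124 in the mutant pool, against 3226 and 2723 in the WT pool. The pools overlapped across arrays, and the ratios within arrays were 0.12 and 0.19, with a mean of 0.16.

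Slc22a2 (Oct2), the blood-side carrier that takes up organic cations such as metformin, gave 8442 and 7913 in the mutant pool, against 8985 and 7753 in the WT pool. The pools overlapped and the arrays differed in sign, with ratios of -0.16 and 0.06.

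The zwitterion carriers Slc22a4 and Slc22a5 stood on opposite sides of 0, except with median centring, where both were below it. Slc22a4 (Octn1), a carrier of ergothioneine, gave 532 and 495 in the mutant pool, against 591 and 539 in the WT pool. The mutant values lay below the WT values, with ratios of -0.11 and -0.15. Slc22a5 (Octn2), the sodium-coupled carnitine carrier whose loss causes systemic carnitine deficiency, gave 2562 and 2304 with its brighter probe in the mutant pool, against 2349 and 2104 in the WT pool. Those pools overlapped, and within arrays the ratios were 0.17 and 0.11. The dimmer probe gave 967 and 834 in the mutant pool and 852 and 747 in the WT pool, with ratios of 0.14 and 0.14. The dimmer probe may also bind a neighbour's transcript, which was not tested. It shares a run of 33 bases with the probe of Slc22a21 (Octn3), a close paralog between Slc22a5 and Slc22a4 on mouse chromosome 11. No other of 294 pairs of a member's probe with a probe of a different Slc22 gene shared more than 9 bases. Pairs without a member were not compared. In the best ungapped alignment of the dimmer Slc22a5 probe and the Slc22a21 probe, 43 of 58 bases were equal. Of the shared run, 30 bases are shown, taken from bases 28 to 57 of the Slc22a5 probe and 26 to 55 of the Slc22a21 probe.
Slc22a5 (A_52_P656659): tgagtctcttgaacaagcaggacttggaag
Slc22a21 (A_51_P407774): tgagtctcttgaacaagcaggacttggaag
The Slc22a21 probe stood at 0.24 and 0.21, and the values of this probe and of the dimmer Slc22a5 probe are uncertain to the extent that they bind each other's transcripts. The brighter Slc22a5 probe does not have that run.

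Slc22a18, an imprinted gene read from the maternal copy and encoding a transporter-like protein of unsettled substrate, had the highest ratio of the members. Its brighter probe gave 12560 and 10998 in the mutant pool, against 10232 and 9168 in the WT pool. Its dimmer probe gave 847 and 702 in the mutant pool and 664 and 598 in the WT pool. With neither probe did the pools overlap. The ratios were 0.30 and 0.24 for the brighter probe, with a mean of 0.27 (1.21-fold) at percentile 94.3, and 0.37 and 0.17 for the dimmer one. Over the members' brightest probes, both mutant values lay above both WT values for 2 (Slc22a12 and Slc22a18), where this held for 19.4% of all genes. They lay below for 3 (Slc22a4, Slc22a7 and Slc22a8), where it held for 20.3%.

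**Figure D2:**
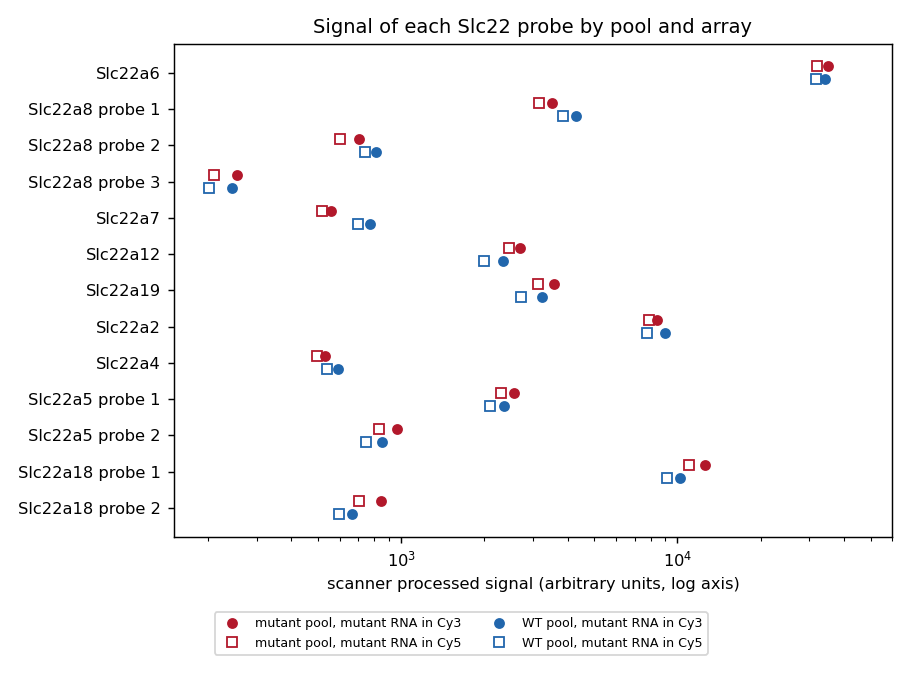
Scanner processed signal (x axis, arbitrary units, log axis) of each Slc22 probe (rows) in the mutant pool (red, upper marks) and the WT pool (blue, lower marks), with mutant RNA in Cy3 (filled circles) and in Cy5 (open squares). Slc22a7 and the brighter 2 probes of Slc22a8 lie lower in the mutant pool on both arrays, and both Slc22a18 probes lie higher.

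The direction of the small differences depended on the scaling. With median centring in place of loess, under which the all-gene median was -0.11, Slc22a7, Slc22a8 and Slc22a4 stood lower still, at -0.55, -0.48 and -0.26. Slc22a5 and Slc22a19 turned to -0.05 and -0.04 under that scaling, Slc22a6 to -0.25, and Slc22a2 stood at -0.29, while Slc22a12 and Slc22a18 kept their sign at 0.06 and 0.02. Relative to the shifted median, Slc22a7 stood at -0.44, Slc22a8 at -0.37, Slc22a2 at -0.18, Slc22a4 at -0.15, Slc22a6 at -0.14, Slc22a12 at 0.17, Slc22a18 at 0.13, Slc22a19 at 0.07 and Slc22a5 at 0.06. With genes sorted by brightness into 10 bins, the median shift was -0.26 in the brightest bin and 0.12 in the dimmest. Slc22a6, in the brightest bin, moved by -0.27, and Slc22a7, in bin 5, moved by -0.14 where the median of that bin was -0.12.

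**Figure D3:**
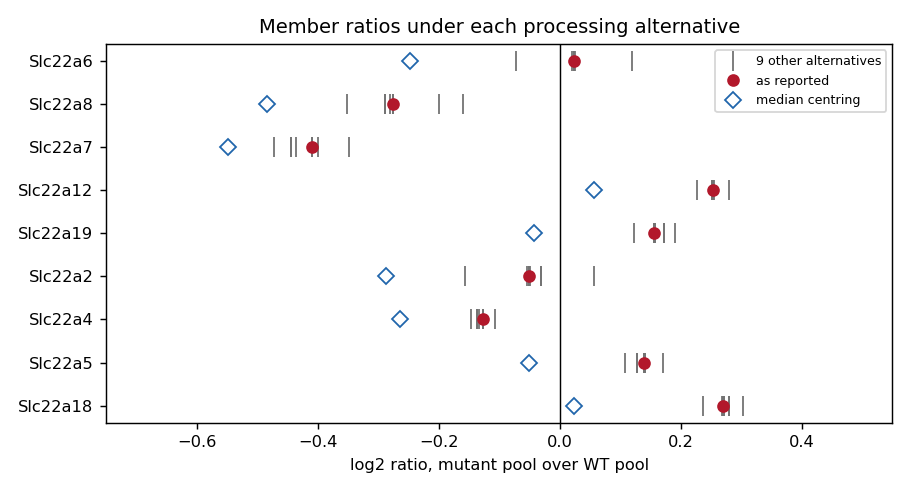
The log2 ratio of mutant over WT pool (x axis) of each member's representative value (rows) as reported (red circles), with median centring (open blue diamonds) and under the 9 other alternatives (grey bars). Slc22a7, Slc22a8 and Slc22a4 stay below 0 throughout, and Slc22a12 and Slc22a18 stay above it.

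Among 16 other Slc22 genes, 11 were measured, and Slc22a15, Slc22a27 and Slc22a28 had no probe under a matched name. None was called, 7 were above 0 on both arrays and 3 below, and their median ratio was 0.18. With median centring it was -0.02, to be read beside the all-gene median of -0.11, as for the lists below. Slc22a22, a prostaglandin carrier, was highest at 0.43, with signals of 177 and 173 in the mutant pool against 114 and 106 in the WT pool. Slc22a13, Slc22a21, Slc22a23 and Slc22a17 stood at 0.21, 0.23, 0.23 and 0.21, and Slc22a29, Slc22a16 and Slc22a30 at 0.13, -0.11 and -0.08. Slc22a14 stood at 0.18 at signals under 30 in both pools, with the WT pool well above background on 1 of 2 arrays. Slc22a20 (Oat6) was dim too, with 16.3 and 15.7 in the mutant pool, well above background there on 1 of 2 arrays, against 37.1 and 34.9 in the WT pool, and a loess ratio of -0.32. The scanner software's ratios for it averaged -1.17 and were past 2-fold on both arrays, so with those ratios it would be called, and a second Slc22a20 probe was not measured. Slc22a3 (Oct3), a neighbour of Slc22a2, and Slc22a26 were not well above background in either pool.

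Other carriers of organic anions, cations and urate, together with scaffold proteins, formed a list of partner genes. Of these 20 genes, 18 were measured, 0 were called higher and 1 was called lower, where 0.0335% and 0.158% of all genes were. Their median was -0.05, or -0.28 with median centring, and with loess 3 were above 0 on both arrays and 11 below. Abcb1b, one of the rodent P-glycoproteins that export drugs, was the one called, at -1.12 and -1.01, with signals of 83.8 and 82.0 in the mutant pool against 272 and 231 in the WT pool. Under the mean over a gene's probes it was no longer called, its second measured probe standing at -0.31. The organic anion carriers Slco1a1 and Slco1a6 stood at -0.61 and -0.59, and the monocarboxylate-type carrier Slc16a9 at -0.55. The scaffold protein Pdzk1, which anchors carriers in the brush border, stood at 0.19.

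Nuclear regulators of tubule transporters had 10 of 10 genes measured, 0 called, and a median of -0.05, or -0.18 with median centring. Hnf4a, a nuclear receptor of kidney and liver epithelium, stood at -0.06. The oestrogen receptor Esr1 was lowest at -0.48. Carnitine synthesis and shuttle genes had 9 of 9 measured, 0 called and a median of 0.09, with 6 above 0 on both arrays, and the median turned to -0.12 with median centring. The mitochondrial carnitine palmitoyltransferase Cpt2 stood at 0.31 and 0.30, and the brightest probe of Tmlhe, the first enzyme of carnitine synthesis, at 0.29, while its other probes stood at -0.20 and -0.15. Slc22a18 lies between the imprinted genes Cdkn1c and Phlda2 on mouse chromosome 7. Of 12 genes at the imprinted clusters of Slc22a18 and Slc22a2, 11 were measured, 0 were called and the median was 0.02, or -0.15 with median centring. Cdkn1c, an inhibitor of cell division, stood at -0.10 and 0.10, Phlda2 at 0.18 and 0.11, the potassium channel gene Kcnq1 at -0.43 and -0.19, and the non-coding H19 at 0.36 and 0.27, each with its brightest probe. The second probe of Kcnq1 stood at 0.06 and -0.07, and that of H19 at 0.73 and 0.44.

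**Figure D4:**
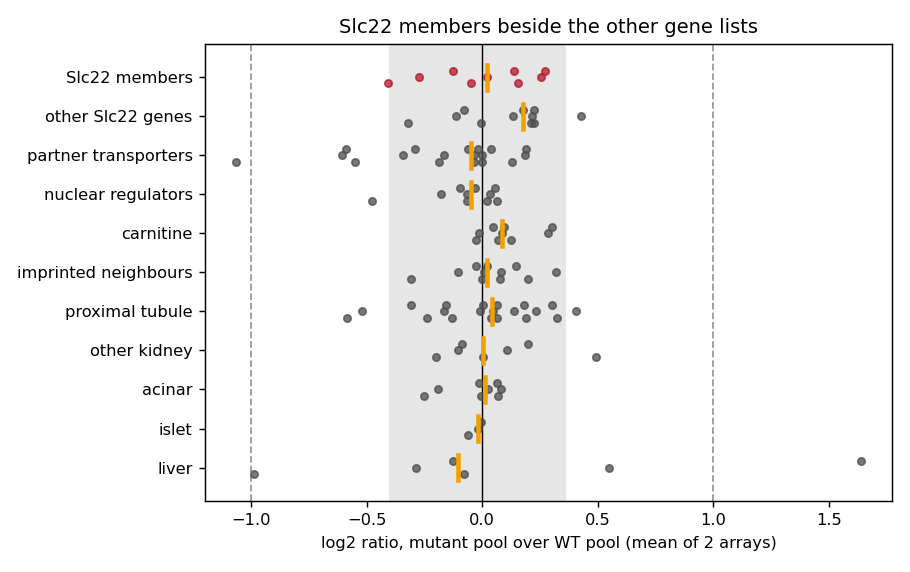
The log2 ratio of mutant over WT pool, mean of 2 arrays (x axis), of each measured gene in the Slc22 members (red) and the other gene lists (grey), with orange bars at list medians. The grey band spans the central 95% of all genes (-0.40 to 0.36) and dashed lines mark 2-fold. Slc22 members spread from -0.41 to 0.27, and Abcb1b, at -1.06, is the lowest point.

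Marker lists of kidney and liver are given beside the family. Proximal tubule genes, 20 of 20 measured and 0 called, had a median of 0.04, or -0.15 with median centring, and ranged from Kap (-0.59), an androgen-responsive kidney protein, and Miox (-0.52) to Slc3a1 (0.32) and Slc4a4 (0.41). The arrays differed for Miox, at -0.87 and -0.17, and a second Slc4a4 probe stood at -0.11. Genes of other kidney segments had a median of 0.01, or -0.19 with median centring, with the collecting duct water channel Aqp2 at 0.49. The liver list, with 6 of 8 measured, had a median of -0.10, or -0.24 with median centring, and a wide spread. With loess, Ahsg stood at 1.64 and was called higher, while Alb stood at 0.55, Apoa2 at -0.29 and Ttr at -0.99. The Y-linked genes Eif2s3y, Ddx3y and Kdm5d, chosen after their values were seen, stood at 1.29, 0.91 and 0.37. Xist, made by the inactive X chromosome, stood at 0.03 with its brightest probe, and its other probes ranged from -0.17 to 0.11. Because the labels give no sex and 1 pool stands for each genotype, the sex makeup of the pools and the genotype cannot be told apart in the Slc22 ratios, and the part that tubule content had in them was not tested.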

How the data were processed

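The PND3 scanner files deposited by the authors hold spot and background intensities for 45018 spots per array, together with processed signals and log10 ratios of Cy5 over Cy3, per the file headers, and other columns for spot type and quality flags. The file headers give Feature Extraction 9.1.3.1, whereas the submitters' processing notes give 8.1. The authors' deposited value table gives log2 of mutant over WT, its direction and scale found by comparison with the scanner ratios (r = 0.9996 and 0.9997, column medians 0).

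With R 4.3.3 and limma 3.58.1, mean signals were corrected by normexp (offset 50) and normalized by loess within arrays, control spots at weight 0, and the sign of the array with mutant RNA in Cy3 was turned. Dim probes have their ratios pulled toward 0 by the offset. Outlier spots (18 and 26, none of a member) were left out. Accessions of 22951 probes matched a RefSeq symbol, and other probes kept the file's name. A gene was represented by its brightest probe, by mean log intensity, among those well above background in at least 1 pool on both arrays. Slc34a1, whose bright probe was left out on 1 array as an outlier, is represented by a dimmer one. Named genes were all members, all other Slc22 genes and up to 4 of each list with the largest absolute ratio. Hnf4a, Cdkn1c, Pdzk1, Xist, Glis3 and the Y-linked genes fall outside that rule and were chosen after their values were seen. The ratio computation was tested on simulated data. Members and lists were chosen with earlier results of these data known. The planned E15.5 fit was not run for lack of gene names. Some genes of the lists, counted in them, are not reported here by name.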

Additional observations from a re-analysis of the deposited data

How the results depend on the processing

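Under 11 alternatives the count of called members stayed at 0 of 9. Of 90 member ratios recomputed, 81 moved by less than the pooled SD of 0.12 between arrays, and the 9 that moved further were those with median centring. Some of the 81 could not have moved, so the count overstates how stable the ratios are. Changing the filter on dim probes could not move any member, since all 13 probes passed it. Averaging probes could not move the 6 members with 1 probe, and the value table nearly repeats the scanner software's ratios. Slc22a2 changed sign to 0.06 when only the array with mutant in Cy5 was used, and Slc22a6 to -0.07 when only its dye swap was used. Over all genes the 40 called became 175 with the scanner software's ratios, 175 with the deposited value table, 74 with an offset of 10 and 185 at 1.5-fold, the last by its lower threshold; for the others the cause was not tested. Over all lists the 2 called genes, Abcb1b and Ahsg, became 4 with the scanner ratios, 4 with the value table and 1 with the mean over probes. No paired analysis was possible because each genotype is 1 pool at PND3, and the E15.5 fit with its alternatives was not run. The number of pools limits these arrays, and the dim signals of Slc22a3, Slc22a14, Slc22a20 and Slc22a26 limit what can be said of them.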
